A study of Mus musculus with 6 samples.

Results

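The collagen genes are the family whose protein products build the fibrils, sheets and filaments of the extracellular matrix. They were taken as every gene whose symbol is Col, a number, the letter a and a number, measured through an array probe cluster that names a single gene. There were 44 such genes among 22180 genes measured. They were sorted by structural class into 11 fibrillar collagens, 6 type IV collagens of the basement membrane and 27 others.

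Each collagen molecule is a triple helix of chains encoded by separate genes, and the chains decide what the molecule can assemble into. Fibrillar collagens pack into banded fibrils and fill the scar of a fibrotic kidney, type IV chains form the meshwork of tubular and glomerular basement membranes, and the remaining classes decorate fibrils, form beaded filaments or span cell membranes. In the kidney interstitial fibroblasts and pericytes are the main source of fibrillar collagen, whereas epithelial and endothelial cells and podocytes make type IV collagen.

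RNA from portions of adult mouse kidneys was hybridised to Affymetrix Mouse Gene 2.1 ST arrays. The 3 arrays labelled knockout (replicates 1, 3 and 5; source label Pax28 dKO) came from mice homozygous for floxed Pax2 and Pax8 alleles with a tamoxifen-inducible Cre, CreER, at Rosa26. The 3 control arrays (replicates 2, 4 and 6) came from mice without Cre; the labels do not say whether these also carried the floxed alleles. Tamoxifen (50 mg/kg, injected into the abdomen on 3 consecutive days) was given to both groups at the age of 8 weeks, with a second course at 10 weeks. The tissue was collected 14 days later. The Rosa26 locus is known to be active in most cell types, and deletion itself was not measured here. The controls lacked CreER, so an effect of Cre and one of the deletion cannot be told apart. Each group had 2 females and 1 male (knockout 1 and control 4).

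The labelled tissue was borne out by 8 tubule markers with mean levels of 8.86 to 11.6 log2, and the array medians lay between 3.81 and 3.87 log2. Pax8 stood 1.36 ± 0.12 log2 higher on the arrays labelled knockout (SE; adjusted p = 0.0037) and Pax2 did not pass (0.27 ± 0.10, adjusted p = 0.19). The clusters may lie outside the deleted exons, which the labels do not name, so these values do not check the labels, and each direction given here is that of the arrays labelled knockout. A log2 value is the deposited array level; a difference is knockout minus control adjusted for sex, and a gene passed where limma's adjusted p over all 22180 genes was below 0.05. In a bulk sample a change in the number of cells of a type and a change in RNA per cell cannot be told apart. Nothing in the labels says that each array is a separate animal, so a p-value covers the spread among these arrays, which may be technical.

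Of the 44 collagen genes, 10 rose and 1 fell on the arrays labelled knockout, and 33 did not pass. The share that passed was 25%, against 7.2% of all genes tested; 4.12% of all genes rose and 3.08% fell. The rises were in Col1a1, Col3a1, Col1a2 and Col5a2 of the fibrillar class, Col4a1 and Col4a2 of the basement membrane, Col12a1 and Col14a1 of the fibril-associated class, Col6a3 of the beaded filaments and Col18a1 of the multiplexins. The fall was in Col8a1, a short-chain network collagen. The count depended on single arrays: 4 collagens passed without control 2, 5 without control 6, 7 without knockout 3 and 4 without knockout 5. Calls over all genes fell too in these fits, from 1596 to 344, 356, 613 and 529. Leaving out either male gave the same fit, that of the females, in which 10 collagens and 1249 of all genes passed. With genotype as the only term 4 collagens and 471 of all genes passed. In each class some members rose or fell and others did not pass, but none of the 4 transmembrane collagens, Col7a1, Col26a1 and Col28a1 passed.

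The differences ran from -0.93 to 1.56 log2, and their median of 0.020 was near that of all genes, -0.0062. The median takes in dim members, with means down to 2.78 log2, below the array medians of 3.81 to 3.87. By class the medians were 0.027 for the fibrillar, -0.024 for the type IV and 0.041 for the 27 remaining genes. These medians were too small for a direction: quantile normalization gave -0.037 for all collagens and -0.040 for the fibrillar class. The groups did not overlap in 16 of the 44 genes, 13 with all knockout-labelled arrays higher and 3 with all of them lower, where 22.5% of all genes had groups apart (11.7% higher and 10.8% lower). All 11 genes that passed were among the 16, and in each of the 10 that rose the male, knockout 1, was the lowest knockout. The members were chosen with earlier results of these data known, so the share that passed describes the family and is not an independent test of it.

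**Figure D1:**
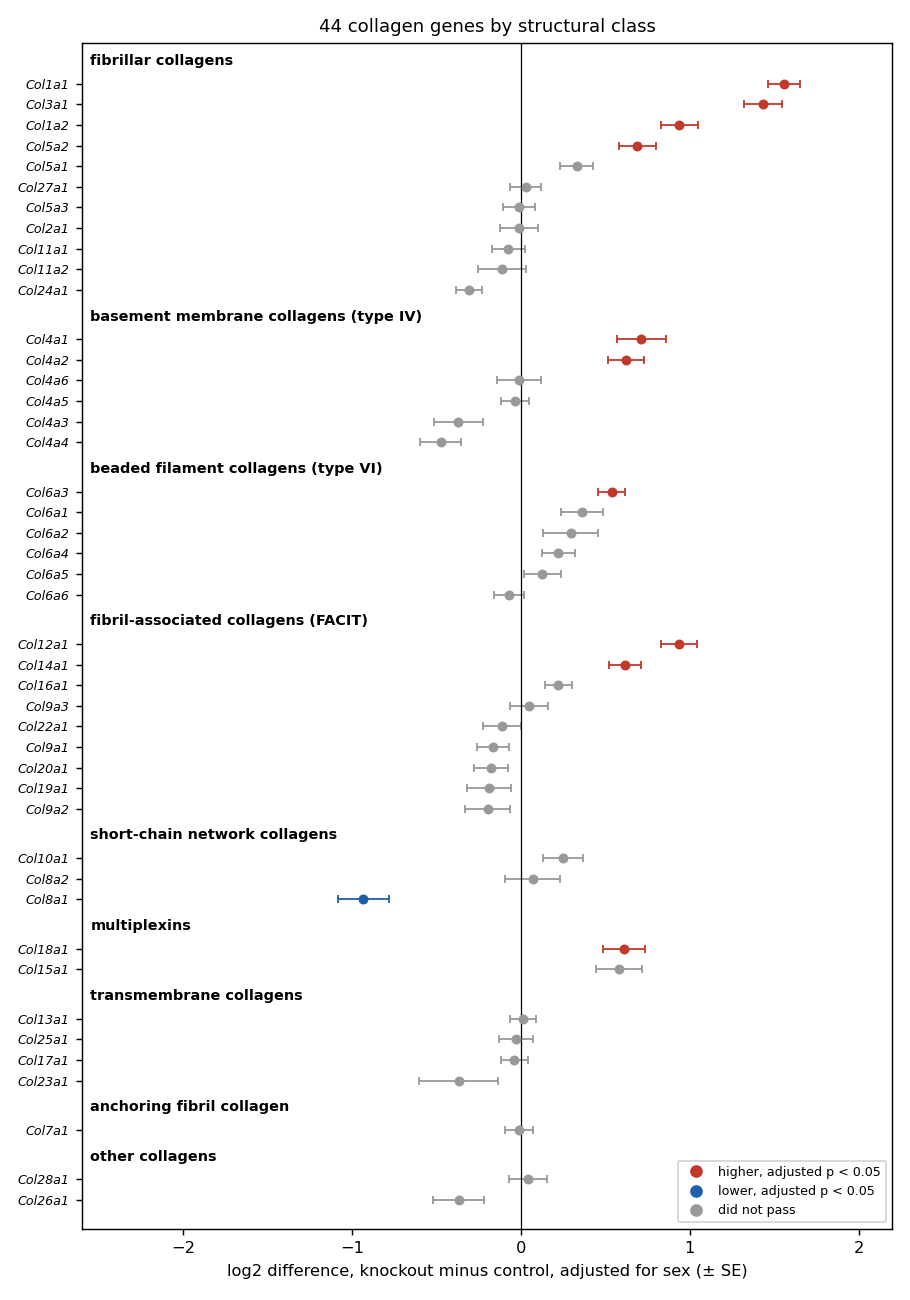
Log2 difference (knockout minus control, adjusted for sex, with its SE as bars; x axis) of each of the 44 collagen genes, sorted within structural class; red points passed as higher, blue as lower and grey did not pass. Col1a1 at 1.56 and Col8a1 at -0.93 are the ends of the range, and each larger class holds points on both sides of 0.

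Col1a1 and Col3a1, chains of the fibrils of interstitial matrix and scar, had the largest differences of the family. Col1a1, the alpha 1 chain of type I collagen (Entrez gene 12842), had log2 levels of 6.47, 5.81 and 6.47 on controls 2, 4 and 6, against 7.49, 7.85 and 8.09 on knockouts 1, 3 and 5. Array values are given in this order. Every knockout-labelled array was more than 1 log2 unit above every control, and the male was the lowest array of each group. The difference was 1.56 ± 0.10 log2 (SE; 2.95-fold, adjusted p = 0.0017). Col3a1, the only chain of type III collagen, stood at 6.11, 5.56 and 5.91 on the controls and 7.10, 7.23 and 7.54 on the knockouts, again without overlap. That difference was 1.43 ± 0.11 (2.70-fold, adjusted p = 0.0028).

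Col1a2 encodes the alpha 2 chain, which pairs with 2 chains of Col1a1 in type I collagen. Its controls stood at 6.75, 6.49 and 6.60 and its knockouts at 7.18, 7.68 and 7.80, so the groups were apart while knockout 1 was nearer the controls than the other two. It rose by 0.94 ± 0.11 (1.92-fold, adjusted p = 0.0077). A second, dimmer cluster of the same gene differed by 0.44 ± 0.16 and did not pass when every cluster was tested (adjusted p = 0.285, against 0.046 for the brighter one in that test). Col5a2, a chain of the type V collagen that nucleates type I fibrils, stood at 5.01, 5.05 and 5.36 on the controls and 5.64, 5.92 and 5.94 on the knockouts. The gap between the highest control and the lowest knockout was small beside the mean difference of 0.69 ± 0.11 (1.61-fold, adjusted p = 0.018), which no longer passed without control 2, knockout 3 or knockout 5 (adjusted p up to 0.071). Col1a1, Col3a1 and Col1a2 passed with any single array left out.

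The other 7 fibrillar genes did not pass. Col5a1, the partner chain of Col5a2, differed by 0.33 ± 0.10 (adjusted p = 0.11), and its second cluster by -0.20 ± 0.15. Col24a1, a minor fibrillar chain, was at the other end with -0.31 ± 0.08 (adjusted p = 0.067): the controls stood at 3.53, 3.49 and 3.61 and the knockouts at 3.11, 3.32 and 3.27. Between them lay Col27a1 (0.03), Col5a3 (-0.01) and 3 genes best known from cartilage, Col2a1 (-0.01), Col11a1 and Col11a2 (-0.11). These last 3 were at or below about the array medians, with group means of 2.82 to 4.0 log2.

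**Figure D2:**
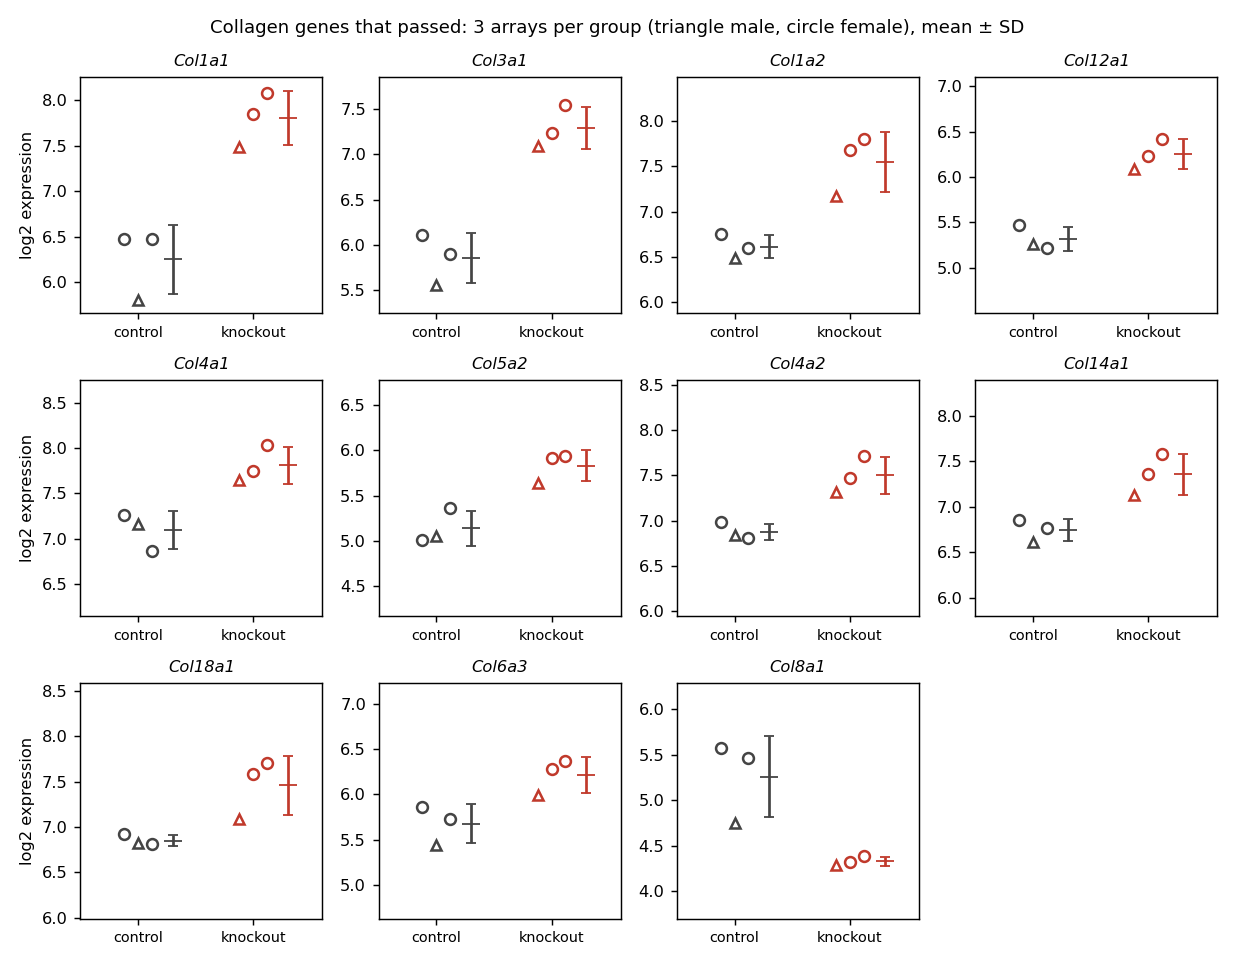
Log2 expression (y axis, a separate range for each gene) on the 3 control and 3 knockout-labelled arrays for the 11 collagen genes that passed; triangles are males, circles females, and bars the mean with the SD. In each panel the groups are apart, and Col8a1 alone has the knockout-labelled arrays below the controls.

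For Col1a2 and Col3a1, which both rose, RefSeq's promoter table (build GRCm38.p6) holds the bases around the start site, 250 before and 50 after, printed here to set the promoters of 2 fibrillar genes side by side. Col1a2 lies at chr6:4505368-4505667 on the plus strand and Col3a1 at chr1:45311288-45311587 on the plus strand. The motifs searched on both strands, of which no matches overlapped, stand in capitals: CCAAT, the box bound by the factor NF-Y, TATAAA, the TATA box, and GGGCGG, the core bound by Sp1.
Col1a2: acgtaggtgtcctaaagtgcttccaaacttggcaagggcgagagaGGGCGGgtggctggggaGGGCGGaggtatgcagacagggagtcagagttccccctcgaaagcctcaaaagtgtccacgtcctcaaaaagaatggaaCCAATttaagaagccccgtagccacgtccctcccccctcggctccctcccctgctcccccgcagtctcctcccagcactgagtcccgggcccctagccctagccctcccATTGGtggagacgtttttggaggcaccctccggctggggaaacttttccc
Col3a1: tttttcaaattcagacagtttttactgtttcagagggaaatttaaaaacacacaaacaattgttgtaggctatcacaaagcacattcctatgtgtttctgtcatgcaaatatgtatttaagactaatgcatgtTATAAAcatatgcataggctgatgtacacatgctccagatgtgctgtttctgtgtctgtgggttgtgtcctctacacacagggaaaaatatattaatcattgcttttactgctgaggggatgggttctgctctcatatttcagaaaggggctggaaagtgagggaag
The Col1a2 window held 2 CCAAT and 2 GGGCGG matches and no TATAAA, and the Col3a1 window held 1 TATAAA, 117 bases before the start site, and neither of the other motifs. Over the 32851 promoter windows of that length in the table, 37.4% held CCAAT, 13.6% TATAAA and 35.7% GGGCGG. Of 38 windows of 35 collagen genes, 13, 5 and 23 held them. A match is a run of letters and not a shown binding site.

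Type IV collagen has 6 chains, whose genes lie in 3 neighbouring pairs: Col4a1 with Col4a2, Col4a3 with Col4a4, and Col4a5 with Col4a6. The alpha 1 and alpha 2 chains form the meshwork of nearly all basement membranes. Col4a1 stood at 7.27, 7.16 and 6.86 log2 on the controls and 7.65, 7.74 and 8.04 on the knockouts. Col4a2 stood at 6.98, 6.84 and 6.81 on the controls and 7.31, 7.47 and 7.71 on the knockouts. For both genes all knockout-labelled arrays lay above all controls, and knockout 5 was the highest. Col4a1 rose by 0.71 ± 0.15 (1.64-fold, adjusted p = 0.036) and Col4a2 by 0.62 ± 0.11 (1.54-fold, adjusted p = 0.022). Both calls were sensitive to single arrays: Col4a1 missed the threshold whichever array was left out (0.056 to 0.11), and Col4a2 without control 2, control 6, knockout 3 or knockout 5 (up to 0.084). Neither passed without sex in the model (0.058 for Col4a1 and 0.051 for Col4a2).

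The alpha 3, alpha 4 and alpha 5 chains make the mature membrane of the glomerular filter, where they come from podocytes, and also occur in some tubules; their loss causes Alport syndrome. Col4a3 stood at 8.76, 8.67 and 8.56 on the controls and 8.61, 7.96 and 8.32 on the knockouts, so that knockout 1 lay within the controls. Col4a4 stood at 7.54, 7.48 and 7.29 on the controls and 7.26, 6.73 and 6.89 on the knockouts, all below the controls, with knockout 1 only just so. The differences were -0.37 ± 0.14 for Col4a3 (adjusted p = 0.19) and -0.48 ± 0.12 for Col4a4 (adjusted p = 0.067), and neither passed; Col4a4 passed as lower with a trended robust prior (adjusted p = 0.032). The difference between the Col4a1 and Col4a2 pair and the Col4a3 and Col4a4 pair was not tested. Beside these values, none of the 4 podocyte markers measured passed, and their summed level ran from 8.82 to 9.20 log2 on the knockouts and 8.77 to 9.24 on the controls.

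Col4a5, on the X chromosome, stood at 5.89, 5.73 and 6.02 on the controls and 5.75, 5.93 and 5.85 on the knockouts (-0.04 ± 0.08, adjusted p = 0.85). Col4a6, its neighbour and a chain of smooth muscle and Bowman's capsule membranes, stood at 4.17, 3.90 and 4.35 and at 4.01, 3.97 and 4.40 (-0.01 ± 0.13, adjusted p = 0.97). For both genes the groups overlapped.

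**Figure D3:**
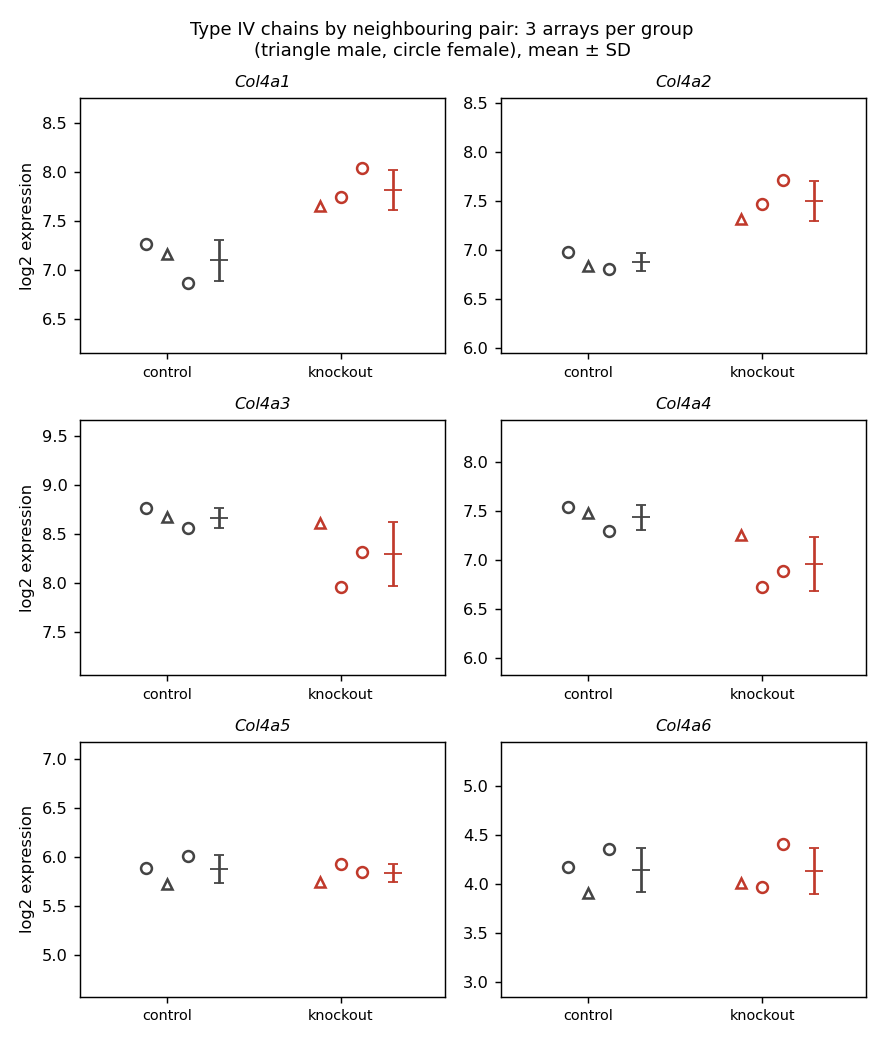
Log2 expression (y axis, a separate range for each gene) of the 6 type IV chains on the 3 control and 3 knockout-labelled arrays, with neighbouring genes side by side; triangles are males, circles females, and bars the mean with the SD. The knockouts lie above the controls for Col4a1 and Col4a2, among or below them for Col4a3 and Col4a4, and among them for Col4a5 and Col4a6.

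The windows around the start sites of Col4a1 (chr8:11312777-11313076, minus strand) and Col4a2 (chr8:11312555-11312854, plus strand) are printed because the 2 chains that rose are read in opposite directions from nearly one place. The window of Col4a4 (chr1:82586800-82587099, minus strand) is given as 1 of the pair that did not pass, since none was available for Col4a3. The motifs are in capitals as before.
Col4a1: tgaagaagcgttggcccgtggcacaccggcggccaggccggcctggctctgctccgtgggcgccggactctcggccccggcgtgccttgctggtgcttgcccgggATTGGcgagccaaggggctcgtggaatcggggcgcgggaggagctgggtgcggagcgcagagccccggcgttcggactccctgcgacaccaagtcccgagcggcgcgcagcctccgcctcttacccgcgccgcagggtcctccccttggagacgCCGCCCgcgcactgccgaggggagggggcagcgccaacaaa
Col4a2: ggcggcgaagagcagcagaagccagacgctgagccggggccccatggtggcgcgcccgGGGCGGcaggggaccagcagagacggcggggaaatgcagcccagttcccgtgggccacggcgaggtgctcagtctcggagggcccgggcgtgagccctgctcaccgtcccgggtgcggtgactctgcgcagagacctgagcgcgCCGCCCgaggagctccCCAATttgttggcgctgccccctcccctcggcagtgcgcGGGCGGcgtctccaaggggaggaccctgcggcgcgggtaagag
Col4a4: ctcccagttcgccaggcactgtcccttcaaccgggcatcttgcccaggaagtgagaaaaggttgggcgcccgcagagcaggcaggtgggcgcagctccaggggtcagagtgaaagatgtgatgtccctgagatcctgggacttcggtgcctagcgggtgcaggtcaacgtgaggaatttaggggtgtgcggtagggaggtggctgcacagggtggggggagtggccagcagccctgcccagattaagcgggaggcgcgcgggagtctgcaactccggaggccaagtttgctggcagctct
In RefSeq the listed starts of Col4a1 and Col4a2 are 21 bases apart, and their windows share 78 bases, read on opposite strands. The Col4a1 window held 1 CCAAT and 1 GGGCGG match, and that of Col4a2 held 1 CCAAT and 3 GGGCGG. The GGGCGG match of Col4a1 and the last of those of Col4a2 are the same bases, within the shared stretch. The Col4a4 window held none of the 3 motifs. How many windows lack all 3 motifs was not counted, so no contrast between these windows is drawn. Over all 44 genes there were 8 pairs of collagens with no protein-coding gene between them. In 2 of them, Col4a1 with Col4a2 and Col3a1 with Col5a2, both genes passed as higher. Of all single genes 4.12% passed as higher. How often neighbouring genes passed together over all genes was not counted, so the pairs cannot be judged against a background.

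Among collagens that sit on the surface of fibrils, 2 of 9 rose, where 4.12% of all genes rose. Col12a1, which links fibrils to their surroundings and is made under mechanical load, stood at 5.47, 5.26 and 5.22 on the controls and 6.09, 6.23 and 6.42 on the knockouts. The groups were well apart, and it rose by 0.93 ± 0.10 (1.91-fold, adjusted p = 0.0074), a call kept with any single array left out. Col14a1, a related chain found on type I fibrils, stood at 6.86, 6.61 and 6.76 and at 7.13, 7.36 and 7.58. It rose by 0.62 ± 0.09 (1.53-fold, adjusted p = 0.016) and did not pass without control 2, control 6 or knockout 5 (up to 0.073). The other 7 genes lay between -0.20 for Col9a2 and 0.22 for Col16a1, whose groups were also apart (adjusted p = 0.16).

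Type VI collagen makes beaded filaments from chains encoded by Col6a1, Col6a2 and Col6a3. Col6a3 stood at 5.86, 5.44 and 5.73 on the controls and 5.99, 6.28 and 6.37 on the knockouts, with control 2 close below knockout 1. It rose by 0.54 ± 0.08 (1.45-fold, adjusted p = 0.016), and the call was lost without control 2, control 6 or knockout 5 (up to 0.070). Col6a1 (0.36 ± 0.13, adjusted p = 0.15; its second cluster -0.28 ± 0.20) and Col6a2 (0.29 ± 0.16, adjusted p = 0.36) had overlapping groups and did not pass. Col6a4, Col6a5 and Col6a6, the later-found chains, differed by 0.22, 0.13 and -0.07 and did not pass.

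The multiplexins are proteoglycan collagens of the basement membrane zone, and the end of Col18a1 is cut off as the angiogenesis inhibitor endostatin. Col18a1 stood at 6.92, 6.82 and 6.81 on the controls and 7.09, 7.59 and 7.70 on the knockouts. The controls were close together and knockout 1, the male, lay nearest them. It rose by 0.61 ± 0.12 (1.53-fold, adjusted p = 0.035) and did not pass without control 2, control 6, knockout 3 or knockout 5 (up to 0.12). Col15a1, the other member, stood at 5.36, 5.05 and 5.48 and at 5.67, 5.73 and 6.23, and differed by 0.58 ± 0.14. It missed the threshold by little (adjusted p = 0.053) and passed without knockout 3 (0.032), with dim genes left out (0.048) and with a trended robust prior (0.034).

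Col8a1, the alpha 1 chain of a hexagonal network collagen made by vessel wall and mesangial cells, was the 1 collagen that fell. Its controls stood at 5.57, 4.75 and 5.46 and its knockouts at 4.28, 4.32 and 4.38. The knockouts lay close together (SD 0.05, n = 3), while the male control lay well below the female ones. The fall was -0.93 ± 0.15 (1.91-fold lower, adjusted p = 0.018). It was lost without control 2, control 6, knockout 3 or knockout 5 (up to 0.082) and without sex in the model (0.073).

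Controls 2 and 6, the 2 female controls, were the arrays highest in Col8a1 and also in Ucp1, the uncoupling protein of brown fat. Ucp1 stood at 7.77, 3.53 and 7.53 on controls 2, 4 and 6 and at 5.12, 4.74 and 3.87 on the knockouts. The adipose markers Cidea, Plin1 and Adipoq were highest on the same arrays, Adipoq only just (5.49 on control 6, 5.44 on knockout 3). Fabp4 was higher on knockout 3 (9.64) than on control 6 (9.54). None of the 5 adipose markers measured passed, and their summed level was 8.84 to 10.5 log2 on the controls and 9.25 to 9.88 on the knockouts. The part of fat in the fall was not tested. Col8a2, the other chain of type VIII collagen, differed by 0.07 ± 0.16 and Col10a1 by 0.25 ± 0.12, and neither passed. In smooth muscle, 1 of 5 markers rose (Tagln, 0.83 ± 0.15, lost in 5 of 6 fits with an array left out), where 4.12% of all genes rose. The summed levels of that list were 9.23 to 9.36 on the knockouts and 9.02 to 9.61 on the controls.

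The remaining 7 genes did not pass. The transmembrane collagens ran from -0.37 ± 0.24 for Col23a1 (adjusted p = 0.43) to 0.01 for Col13a1. Col7a1, which anchors skin epithelium, stood at -0.01 ± 0.08. Col26a1 differed by -0.37 ± 0.15 (adjusted p = 0.21) and Col28a1 by 0.04 ± 0.11.

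**Figure D4:**
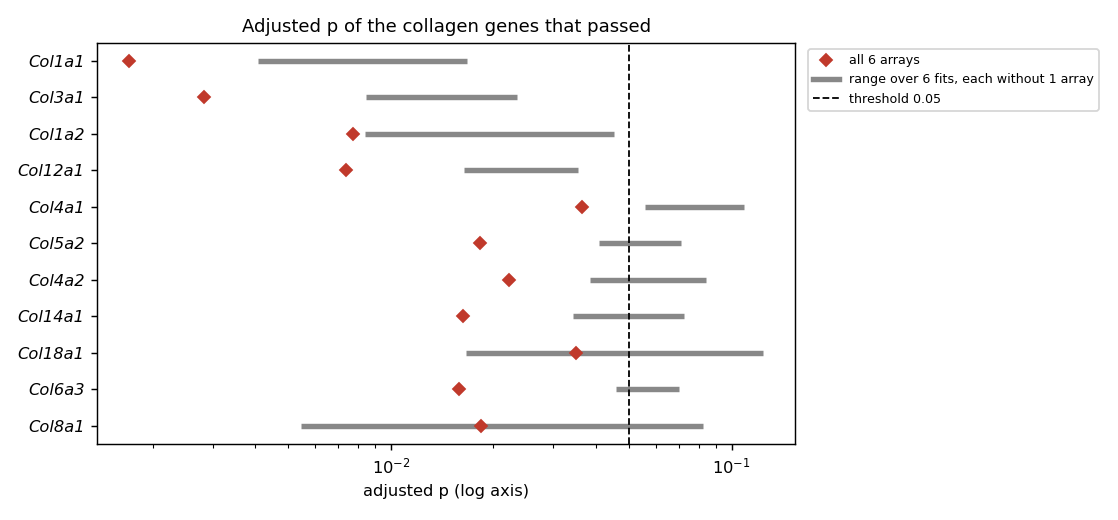
Adjusted p (x axis, log scale) of the 11 collagen genes that passed, with all 6 arrays (diamonds) and as the range over 6 fits that each leave out 1 array (bars); the dashed line is 0.05. The bars of Col1a1, Col3a1, Col1a2 and Col12a1 stay left of the line and that of Col4a1 lies right of it.

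The arrays also differed by sex. Col6a6 was higher on the male arrays, at 4.65 and 4.41 log2 on control 4 and knockout 1 against 3.63 to 3.76 on the 4 female arrays. The male minus female difference was 0.84 ± 0.10 (adjusted p = 0.013). Col1a1 was lower on the male arrays by -0.57 ± 0.10 (adjusted p = 0.0497). These were 2 of 44 collagens, where 1.87% of all genes passed; Col1a1 lost the call with any single array left out, and Col6a6 without control 2, control 4 or control 6 (up to 0.097). No collagen passed limma's test of whether the genotype difference depended on sex (smallest adjusted p = 0.60), where 0.00451% of all genes passed. In that test 5 of the 44 collagens, and 1551 of all 22180 genes, had an unadjusted p below 0.05. The test rests on 1 male per group. Col8a1 differed by -1.17 in the females and -0.47 in the males.

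Genes that make, bind and break down collagen were read from 6 lists. Of 76 such genes measured, 17 rose and 3 fell, or 26.3% against 7.2% of all genes, and their median difference was 0.18 log2 against -0.0062. The count was 9 without control 2, 10 without control 6, 11 without knockout 5 and 7 with genotype as the only term. Calls over all genes fell too in these fits, from 1596 to 344, 356, 529 and 471. Each list is read against the 7.2% of all genes that passed, 4.12% as higher and 3.08% as lower, and the lists were not tested against each other.

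Collagen chains are hydroxylated, glycosylated and folded in the endoplasmic reticulum. Of 16 genes of these steps none rose and 2 fell: P3h2, a prolyl 3-hydroxylase (-0.89 ± 0.12, adjusted p = 0.012), and Colgalt2, a galactosyltransferase (-0.61 ± 0.09, adjusted p = 0.017). P3h2 stood at 10.65, 10.33 and 10.94 on the controls and 9.69, 9.75 and 9.82 on the knockouts, clear of each other; its adjusted p was 0.051 without control 2. Colgalt2 was lost in 4 of 6 fits with an array left out (up to 0.074). P4ha1, a catalytic subunit of the prolyl 4-hydroxylase that stabilises the triple helix, differed by -0.47 ± 0.12 (adjusted p = 0.065). Serpinh1, the collagen chaperone HSP47, differed by 0.30 ± 0.12 (adjusted p = 0.22), and Colgalt1 by 0.20 ± 0.07 (adjusted p = 0.17). The latter 3 did not pass.

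After export, procollagen is trimmed and cross-linked, and here 3 of 14 genes rose and none fell. Lox, a cross-linking lysyl oxidase, stood at 5.62, 5.05 and 5.50 on the controls and 5.96, 6.71 and 6.60 on the knockouts, and its relative Loxl1 at 6.55, 5.85 and 6.27 and at 6.68, 7.19 and 7.41. They rose by 1.04 ± 0.09 (adjusted p = 0.0036) and 0.87 ± 0.11 (adjusted p = 0.0098), and kept the call whichever array was left out. Pcolce, an enhancer of procollagen trimming, rose by 0.48 ± 0.11 (adjusted p = 0.048) with overlapping groups and lost its call in each of 6 such fits (up to 0.15). Loxl4 missed the threshold at -0.83 ± 0.19 (adjusted p = 0.051).

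Of 13 fibril-regulating proteoglycans and glycoproteins 6 rose. Fibronectin, Fn1, on which fibrils assemble, rose by 1.21 ± 0.11 (adjusted p = 0.0043) and the collagen-binding Sparc by 0.86 ± 0.10 (adjusted p = 0.0087), both with any array left out. The small proteoglycans biglycan, Bgn (0.59 ± 0.08), and decorin, Dcn (0.70 ± 0.10), rose and missed the threshold without control 2 or control 6 (up to 0.054 and 0.060). The other 2 were Fmod and Postn, lost in 6 and 5 of the 6 fits.

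Among 9 collagen receptors 3 rose. Lair1, an inhibitory collagen receptor of leukocytes, stood at 4.72, 4.36 and 4.35 on the controls and 5.34, 5.52 and 5.72 on the knockouts (1.05 ± 0.12, adjusted p = 0.0074). Mrc2, the uptake receptor Endo180, rose by 0.66 ± 0.08 (adjusted p = 0.0081), and both kept the call with any array left out. The kinase receptor Ddr1 rose by 0.40 ± 0.09 (adjusted p = 0.043) with overlapping groups and lost its call in each of the 6 fits (up to 0.14). Itgb1, the shared integrin beta chain, missed it at 0.26 ± 0.08 (adjusted p = 0.096).

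Of 14 basement membrane partners of type IV collagen 2 rose. Nidogen 1, Nid1, which ties laminin to type IV collagen, stood at 8.58, 8.26 and 8.29 on the controls and 8.94, 9.17 and 9.31 on the knockouts (0.76 ± 0.10, adjusted p = 0.012; at most 0.0499 without any single array). The heparan sulfate proteoglycan agrin, Agrn, rose by 0.57 ± 0.11 (adjusted p = 0.028), lost in 4 of 6 fits with an array left out (up to 0.11). The laminin genes Lamc1 (0.32 ± 0.08, adjusted p = 0.061) and Lama2 (0.34 ± 0.08, adjusted p = 0.063) did not pass.

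Of 10 genes for collagen breakdown and its inhibitors 3 rose and 1 fell. Mmp14, a membrane-bound collagenase, stood at 6.62, 6.29 and 6.74 on the controls and 7.50, 7.99 and 7.98 on the knockouts (1.27 ± 0.08, adjusted p = 0.0017, kept with any array left out). The lysosomal collagenase cathepsin K, Ctsk, rose by 0.77 ± 0.10 (adjusted p = 0.012) and was lost without control 2 or knockout 5 (up to 0.054). Of the protease inhibitors, Timp2 rose by 0.44 ± 0.08 and Timp3 fell by 0.39 ± 0.08 log2 (adjusted p = 0.024 and 0.040), and each lost its call in all 6 such fits (up to 0.092 and 0.14).

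**Figure D5:**
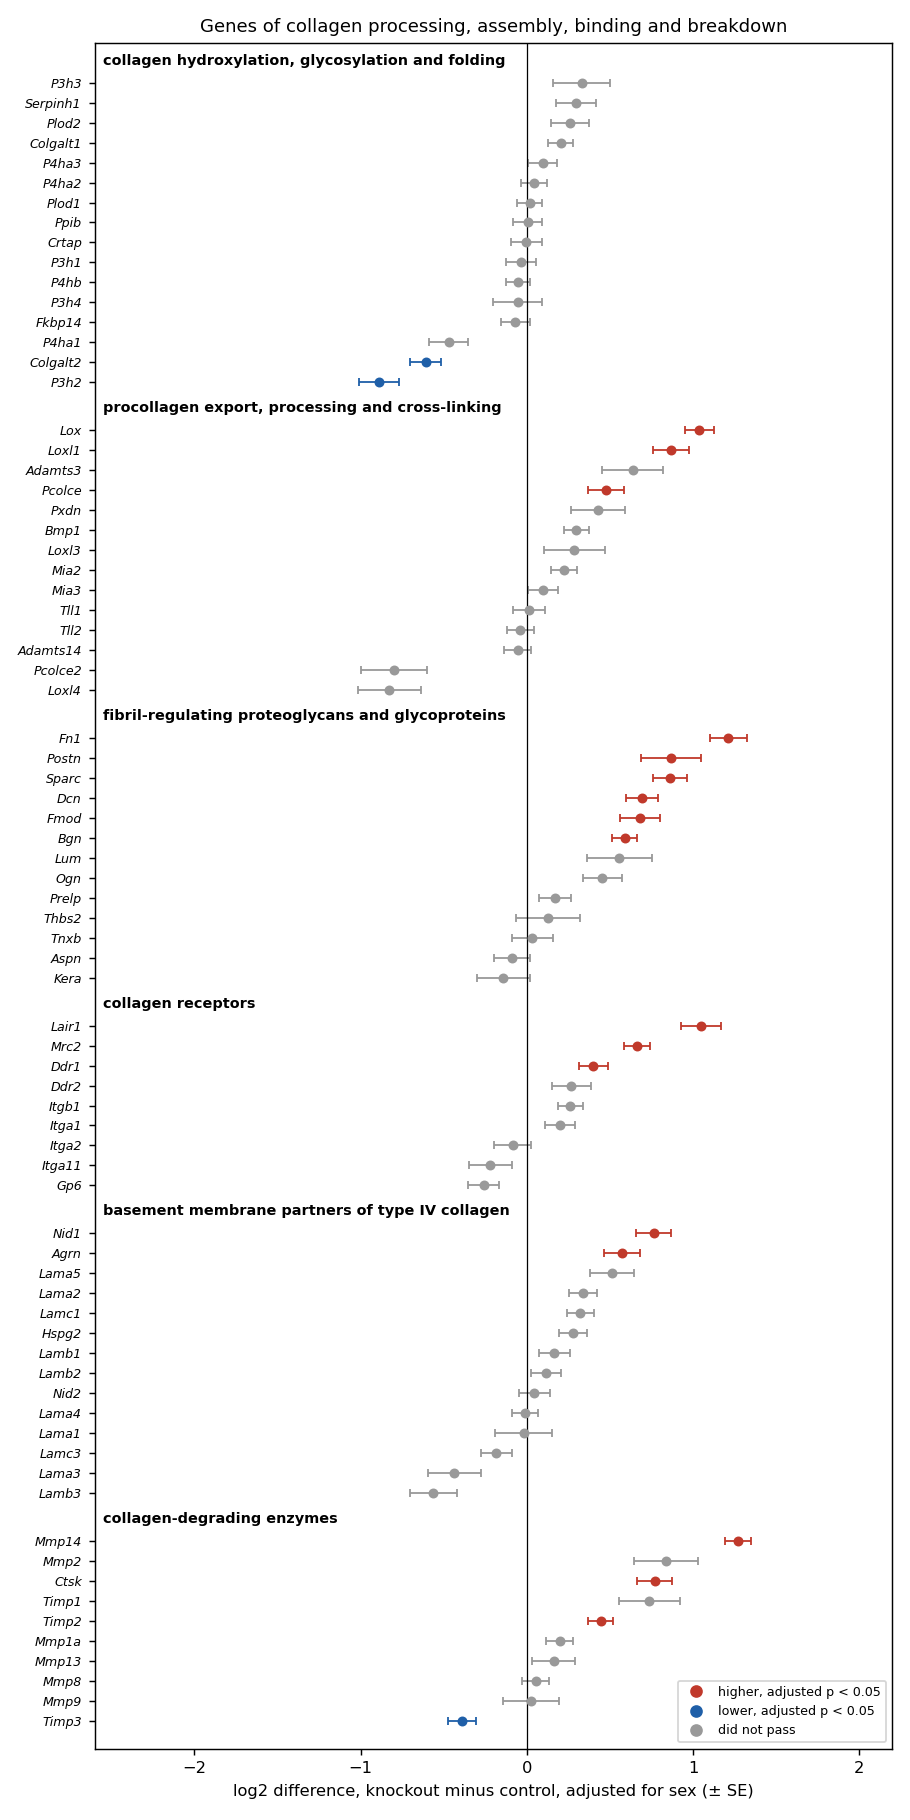
Log2 difference (knockout minus control, adjusted for sex, with its SE as bars; x axis) of 76 genes that modify, process, coat, bind or degrade collagen, sorted within 6 lists; red points passed as higher, blue as lower and grey did not pass. The top list holds 2 falls and no rise among 16 genes, and the list of fibril-regulating proteins 6 rises among 13, of which 4 were lost in some fits with an array left out.

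Marker lists of the cell types that could carry these RNAs gave the following values. Over all genes 7.2% passed, 4.12% as higher and 3.08% as lower. Of 7 macrophage markers 5 rose and none fell. Their summed levels were 9.62 to 10.3 log2 on the knockouts and 8.67 to 8.82 on the controls. Cd68 rose by 1.27 ± 0.11 and C1qa by 1.44 ± 0.16, and both kept the call with any array left out. Adgre1 rose by 1.09 ± 0.16 and lost its call without control 2 or control 6. Csf1r (0.47 ± 0.12, adjusted p = 0.069) and Itgam (1.38 ± 0.37, adjusted p = 0.079) did not pass. Of 8 fibroblast and pericyte markers 1 rose, Tcf21 (0.42 ± 0.07, adjusted p = 0.024, lost in all 6 fits with an array left out), and the receptors Pdgfrb (0.48 ± 0.12, adjusted p = 0.073) and Pdgfra (0.28 ± 0.09, adjusted p = 0.135) did not pass. The summed level of that list was 10.4 on each knockout and 9.71 to 10.3 on the controls. No endothelial marker of 6 passed (11.4 on each knockout and 11.3 to 11.7 on the controls), nor did any of 4 urothelial markers (7.87 to 8.47 and 7.49 to 8.43). Of the 8 tubule markers 3 fell, Slc34a1, Aqp2 and Cdh16, and none of these calls held without control 2 or without control 6. Umod (0.31 ± 0.09, adjusted p = 0.108) and Slc12a3 (0.33 ± 0.09, adjusted p = 0.0822) had positive differences that did not pass. The summed level was 13.8 to 13.9 on the knockouts and 13.9 to 14.1 on the controls. The part of these cell types in the collagen differences was not tested.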

How the data were processed

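The authors deposited log2 expression values per transcript cluster of 6 arrays; per the submitters' processing notes, RMA, limma and R 3.4.0 were used, without stated roles. The genome build and any filter were not given in the sources used here. Cluster names came from the platform annotation, updated by gene identifier through RefSeq (GRCm38.p6). Of 41345 clusters, 23521 had 1 gene symbol, of which 23328 matched RefSeq; the highest-mean cluster of each gene was used, leaving 22180 genes. One further collagen cluster named several genes and was left out.

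Differences were fitted by limma (version 3.58.1, R 4.3.3) to these values, with genotype and sex as terms (3 residual, 6.72 total degrees of freedom) and Benjamini-Hochberg adjustment over all genes at 0.05. A genotype by sex term was fitted separately. Errors of differences are moderated SEs. Summed marker levels are the log2 of summed linear values. The fit was tested on simulated data. The 6 arrays limit the precision, and no detection calls were used.

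The members and lists were chosen with earlier results of these data known. Named were Pax2, Pax8, every collagen that passed, all type IV chains, the ends of each class and up to 4 partner genes per list by p; others were named after their values were seen. Alternatives were a model without sex, females only, arrays left out, quantile normalization, removal of dim genes (mean below 2.73 log2), a trended robust prior, median centring, weights per array, averaged clusters and a test of every cluster. Partner genes of the lists without a single-gene cluster are not analysed here.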

Additional observations from a re-analysis of the deposited data

How the results depend on the processing

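With 1 array left out, limma called 4 to 10 collagens, 3 to 4 fibrillar, 0 to 1 type IV (0 without control 2, control 6, knockout 3 or knockout 5, with 3 or 4 of them at an unadjusted p below 0.05), 1 to 5 remaining collagens, 9 to 19 partner genes and 344 to 1249 genes in all; 0 to 1 collagens differed by sex. Of the 11 collagens called, 4 kept their call in all 6 fits, 6 lost it in some and Col4a1 in all 6. Leaving out either male gives the fit of the females alone, with 1 type IV call. The fits without control 4 and without knockout 1 are thus identical, also in each tally over 6 fits above. Without sex in the model 471 genes, 4 collagens (Col1a1, Col1a2, Col3a1, Col12a1), 0 type IV (3 at an unadjusted p below 0.05), 1 remaining collagen and 7 partner genes passed. Testing every cluster gave 302, 4, 0 (3 unadjusted), 1 and 6, over more tests and with variances estimated anew over all clusters. The SE of the brighter Col1a2 cluster was 0.117 there, against 0.108 in the main fit. A trended robust prior raised the partner genes to 31. Quantile normalization, removal of dim genes, the trended prior, median centring, weights per array and averaged clusters kept all 11 collagen calls. No called collagen changed sign in any fit. All 11 had groups apart, so in fits to the same values the sign was fixed beforehand.

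Without controls 2 and 6 together, a fit chosen after seeing the data, the genotype difference is that of the 2 males and 1 residual degree of freedom is left; limma called 0 genes, 0 collagens in any class and 0 partner genes (at an unadjusted p below 0.05, 2329 genes, 11 collagens, of which 4 fibrillar, 0 type IV and 7 remaining, and 21 partner genes), and the 11 collagens called with all arrays kept their sign. The groups of these 11 collagens were apart with all arrays, so their sign could not change in this fit. Col1a1 stood at 1.68 and Col18a1 at 0.27 log2 there. The cause of the lower counts was not tested beyond the fewer arrays. No paired analysis was possible because the groups share no replicate number.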

Other observations

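A list of 6 cartilage markers was read beside the collagens of cartilage, which did not pass. Of the 6 markers 2 rose, where 4.12% of all genes rose. Comp, a pentameric glycoprotein that binds collagen fibrils, had log2 levels of 3.39, 3.33 and 3.21 on controls 2, 4 and 6, against 4.43, 4.97 and 5.37 on knockouts 1, 3 and 5, a difference of 1.61 ± 0.19 (SE; limma adjusted p = 0.0077). Sox9, the transcription factor that drives Col2a1 in cartilage and is also expressed in injured tubules, stood at 5.04, 4.20 and 4.74 and at 5.74, 6.65 and 6.07 (1.49 ± 0.16, adjusted p = 0.0066). For both genes every knockout-labelled array lay above every control, and both passed with any single array left out. Acan, Matn1, Matn3 and Chad did not pass, with differences between -0.10 and 0.04. Their group means of 2.26 to 3.38 log2 lay below the array medians of 3.81 to 3.87, as did the control mean of Comp (3.31). Col2a1 stood at -0.01 ± 0.11.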
